A study of Rattus norvegicus with 18 samples.

Results

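Insulin signalling in the heart was followed through 10 genes, from the receptor to the glucose transporter: the receptor gene Insr, the adaptor genes Irs1 and Irs2, the PI 3-kinase subunit genes Pik3r1 and Pik3ca, the kinase genes Akt1 and Akt2, the transcription factor genes Foxo1 and Foxo3, and Slc2a4, which encodes GLUT4. They were taken by symbol from the authors' 3 lists of changed genes, which together hold 6588 distinct gene identifiers. Of the 10 genes, 9 were listed at least once. The lists come from RNA sequencing of polyadenylated RNA from the left ventricle of 18 male rats, 6 in each of 3 groups. WKY rats (Wistar Kyoto) served as the wild-type control strain, ZSF1 lean rats as the hypertensive group, and ZSF1 obese rats, hypertensive and with metabolic syndrome, as the model of HFpEF, heart failure in which the ejection fraction is preserved. No drug or diet is named in the labels, and the age of the rats is not given in the sources used here. As background, ZSF1 rats are a cross in which the obese animals inherit a defective leptin receptor gene from both parents, and lean littermates carry at least one working copy. WKY rats are a separate strain, so strain and disease differ together in comparisons with WKY.

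Insulin binds a receptor tyrosine kinase on the myocyte surface, which phosphorylates the adaptor proteins IRS1 and IRS2. These recruit PI 3-kinase, a pair of a regulatory and a catalytic subunit, whose lipid product brings AKT kinases to the membrane to be activated. Active AKT lets vesicles loaded with GLUT4 fuse with the cell surface, so that glucose enters, and it keeps FOXO transcription factors out of the nucleus. FOXO factors are known activators of Insr and Irs2 and of genes for protein breakdown and fuel choice. GLUT4 is the main insulin-responsive glucose transporter of heart and skeletal muscle. Activation runs mostly through phosphorylation and movement of proteins, which RNA levels do not measure.

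Most of the chain was lower at the RNA level in obese hearts. Against lean hearts, 8 of the 10 genes fell, 0 rose and 2 (Pik3ca and Akt1) were not listed, and against WKY hearts 8 fell, 0 rose and 2 (Pik3ca and Irs2) were not listed. The genes listed in both comparisons number 7. Their folds (the level in obese hearts as a ratio to the other group) ran from 0.152 to 0.463 against lean and, over the 8 genes listed there, from 0.156 to 0.5 against WKY in the authors' deposited tables. Among all listed genes, 46.6% fell in obese against lean and 46.0% in obese against WKY. Set against all 20972 named protein-coding symbols of the RefSeq table, expressed in heart or not, 11.8% were listed as lower in obese than in lean and 11.7% as lower in obese than in WKY. The number of genes the authors tested is not part of the lists, so the share of tested genes that passed is unknown. In whole tissue, fewer cells of a type and less RNA per cell cannot be told apart. Both comparisons use the same 6 obese rats, so the second is not a separate check of the first.

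**Figure D1:**
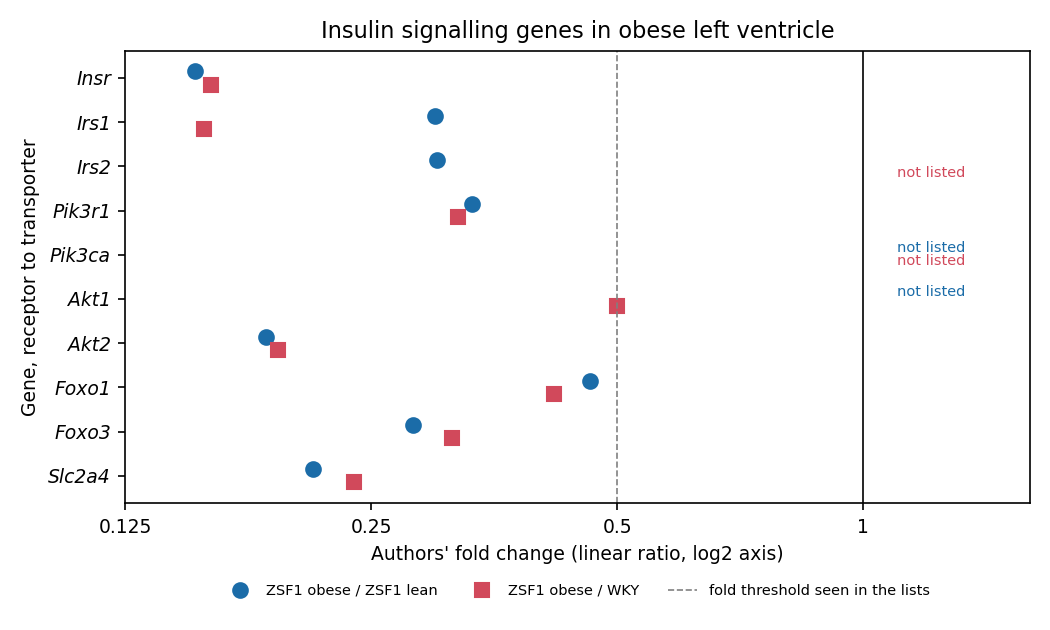
Fold change of each of the 10 genes (rows, receptor at the top, transporter at the bottom) on a log2 axis, for obese against lean (circles) and obese against WKY (squares), each from 6 rats against 6 as deposited by the authors, with no error bars because the lists hold none. All plotted points lie at or left of the dashed line at 0.5. Irs1 has the widest gap between its points (0.299 and 0.156), and "not listed" marks a gene absent from that list, not a measured fold of 1.

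All genes in the lists had a fold of 2 or more, or of 0.5 or less. The highest adjusted p is 0.0498 in obese against lean and 0.0499 in obese against WKY, but 0.000347 in lean against WKY. A gene absent from a list may have changed by less than this fold, may have missed the test, or may not have been detected. Levels per rat, mean levels and standard errors are not used here, so the spread between rats enters through the authors' adjusted p alone, and no order of absolute levels between genes can be given. For the same reason the labelled tissue could be checked against markers only through genes that changed.

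Promoter sequence is shown for 4 of the genes that fell together, chosen after their values were seen: Insr and Akt2, with the smallest adjusted p-values, Irs1, whose folds differed between the comparisons, and Pik3r1. RefSeq windows (build GRCr8) were found for 7 of the 10 genes and not for Irs2, Foxo3 or Slc2a4. Each line gives the 250 bases before the annotated start, 5′ to 3′ on the gene's strand, which need not be the start used in heart. Capitals mark the FOXO core motif GTAAACA or its reverse complement TGTTTAC, and the GC box GGGCGG or CCGCCC, a short motif bound by SP-family factors. The windows are chr12:6128804-6129053 on the minus strand for Insr, chr9:91053960-91054209 on the minus strand for Irs1, chr2:34697661-34697910 on the minus strand for Pik3r1 and chr1:92021667-92021916 on the plus strand for Akt2.
Insr: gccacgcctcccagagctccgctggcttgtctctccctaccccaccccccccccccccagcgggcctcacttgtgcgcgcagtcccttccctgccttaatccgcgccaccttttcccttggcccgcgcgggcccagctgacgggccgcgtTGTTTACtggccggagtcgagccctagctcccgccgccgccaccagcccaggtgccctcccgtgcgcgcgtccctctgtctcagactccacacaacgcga
Irs1: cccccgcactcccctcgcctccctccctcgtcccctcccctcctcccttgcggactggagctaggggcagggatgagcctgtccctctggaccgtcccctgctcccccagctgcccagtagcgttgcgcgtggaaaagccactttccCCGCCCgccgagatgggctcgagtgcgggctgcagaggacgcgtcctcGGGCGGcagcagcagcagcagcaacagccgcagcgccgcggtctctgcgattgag
Pik3r1: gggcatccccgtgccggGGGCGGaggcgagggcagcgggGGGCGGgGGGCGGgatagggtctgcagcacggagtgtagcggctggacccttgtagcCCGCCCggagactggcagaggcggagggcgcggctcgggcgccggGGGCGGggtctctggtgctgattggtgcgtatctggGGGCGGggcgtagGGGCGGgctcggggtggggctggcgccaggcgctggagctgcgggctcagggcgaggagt
Akt2: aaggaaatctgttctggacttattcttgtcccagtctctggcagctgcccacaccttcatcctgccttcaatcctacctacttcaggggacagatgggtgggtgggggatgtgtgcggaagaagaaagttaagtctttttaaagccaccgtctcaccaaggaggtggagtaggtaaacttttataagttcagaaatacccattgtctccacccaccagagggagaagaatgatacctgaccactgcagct
The FOXO core was found once in the Insr window, starting 100 bases before the annotated start, and in 3.21% of all 33469 RefSeq windows of 250 bases. Among the 7 windows it occurred in those of Insr and Pik3ca, of which Insr fell and Pik3ca was not listed. The GC box was found 7 times in the Pik3r1 window, 2 times in that of Irs1 and in none of the other windows among the 7. Of all RefSeq windows, 30.5% held at least 1, a share of windows and not a number of sites. The E-box CANNTG, whose matches can share end letters with a FOXO core, was found in 65.5% of all windows and in those of Insr, Irs1, Pik3ca, Akt1 and Akt2. A match of letters describes the sequence and does not show binding.

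At the top of the chain, Insr (ENSRNOG00000029986) stood at 0.152 of the lean level (adjusted p = 1.87e-154) and at 0.159 of the WKY level (adjusted p = 2.81e-117) in the authors' deposited tables, both from DESeq2. This was the lowest fold of the 10 genes against lean hearts, 6.58-fold lower. Of all genes that fell in that comparison, 14% had a larger fall than Insr. The sister receptor gene Igf1r, whose product shares the same adaptors, was in none of the lists. The insulin-like growth factor genes Igf1 and Igf2, ligands of that receptor, rose in obese hearts, with folds of 4.26 and 6.15 against lean and 3.27 and 5.50 against WKY in the authors' deposited tables.

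Both adaptor genes were lower in obese than in lean hearts by nearly the same ratio, but only Irs1 was listed against WKY. Irs1 (ENSRNOG00000014597) stood at 0.299 of the lean level (DESeq2 adjusted p = 4.14e-13) and Irs2 (ENSRNOG00000023509) at 0.301 (DESeq2 adjusted p = 1.67e-10) in the authors' deposited table. Against WKY, Irs1 stood at 0.156 (DESeq2 adjusted p = 5.81e-31), the lowest fold of the 8 listed genes, in the authors' deposited table. Irs1 therefore had the 1224th lowest fold of 2655 falls against lean and the 400th of 2625 against WKY. Whether the contrasts differ for Irs1 or Irs2 was not tested, since that needs levels per rat. Irs2 carries the highest adjusted p of the 8 listed members in obese against lean.

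Other adaptors went both ways. Sh2b2, an adaptor that binds the activated receptor, rose with folds of 4.53 and 3.84 in the authors' deposited tables. Grb2, which leads to the Ras branch, was listed against lean alone (0.467), and Gab1, a docking protein, against WKY alone (0.376), in the authors' deposited tables. Among 11 adaptor genes, members included, 4 fell and 1 rose against lean, and 3 fell and 1 rose against WKY. Beside these counts, 11.8% of the named protein-coding symbols were listed as lower and 13.3% as higher against lean, and 11.7% and 13.5% against WKY. Shc1, Cbl and Sh2b1 were in none of the lists.

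Of 7 PI 3-kinase subunit genes, 1 fell, 2 rose and 4 were not listed in each comparison. Among the named protein-coding symbols, 11.8% were listed as lower and 13.3% as higher against lean, and 11.7% and 13.5% against WKY. Pik3r1, the regulatory subunit gene (ENSRNOG00000018903), stood at 0.332 of the lean level (DESeq2 adjusted p = 3.75e-24) and at 0.319 of the WKY level (DESeq2 adjusted p = 1.68e-35) in the authors' deposited tables. Those values lie near the median fold of all falls, 0.314 and 0.312. Pik3ca, the catalytic subunit gene of the insulin response, was in none of the lists, and neither was Pik3cb, its widely expressed relative. The catalytic genes that are chiefly expressed in leukocytes rose: Pik3cd had a fold of 2.77 in both comparisons, and Pik3cg had folds of 2.62 against lean and 2.19 against WKY, in the authors' deposited tables. Pik3r2 and Pik3r3, the other regulatory subunit genes, were not listed.

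Of the AKT kinases, Akt2, the isoform most tied to glucose uptake, fell in both comparisons, with the smallest adjusted p of the listed members in each. Akt2 (ENSRNOG00000018677) stood at 0.186 of the lean level (DESeq2 adjusted p = 4.77e-258) and at 0.192 of the WKY level (DESeq2 adjusted p = 2.74e-130) in the authors' deposited tables. Its adjusted p was the 29th smallest of the 5700 genes in obese against lean and the 79th smallest of 5709 in obese against WKY. Akt1, the isoform tied to growth and survival (ENSRNOG00000028629), was listed against WKY alone, at 0.5 (DESeq2 adjusted p = 1.77e-25), in the authors' deposited table. That fold is the highest that a fallen gene in the list has, so Akt1 sits on the edge of the fold threshold, and a slightly smaller fall would not be listed. Pdpk1, which encodes the kinase that activates AKT, was in none of the lists. In the mTOR complexes, Rptor stood at 0.369 and 0.376 of the lean and WKY levels, while Rictor (0.5) and Mlst8 (0.49) were listed against WKY alone in the authors' deposited tables. Sgk1, a kinase related to AKT, rose with folds of 2.81 and 3.68 in the authors' deposited tables.

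Both FOXO genes among the 10 fell, Foxo3 with the lower fold. Foxo3 (ENSRNOG00000000299) stood at 0.281 of the lean level (DESeq2 adjusted p = 1.09e-41) and at 0.314 of the WKY level (DESeq2 adjusted p = 1.08e-33) in the authors' deposited tables. Foxo1 (ENSRNOG00000013397) stood at 0.463 of the lean level (DESeq2 adjusted p = 3.21e-15) and at 0.418 of the WKY level (DESeq2 adjusted p = 2.87e-19) in the authors' deposited tables. Foxo1 was thus among the smaller falls: 89.3% of the genes that fell against lean had a larger one. The remaining family members went the same way, with Foxo6 at 0.071 and 0.062 of the lean and WKY levels and Foxo4 at 0.392 of the lean level, not listed against WKY, in the authors' deposited tables.

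Known FOXO targets fell and none was listed as higher. Of 18 target genes, 10 fell in each comparison, with a median fold of 0.187 against lean and 0.214 against WKY. The median over all listed falls was 0.314 and 0.312, and 11.8% and 11.7% of the named protein-coding symbols were listed as lower. The targets that fell include the muscle ubiquitin ligase genes Fbxo32 (0.125 of lean, 0.131 of WKY) and Trim63 (0.346 and 0.312), and Bnip3, a mitophagy receptor gene (0.158 and 0.15), in the authors' deposited tables. Sesn1 and Sesn3, which encode stress-induced brakes on mTOR, both stood at 0.27 of the lean level, and at 0.316 and 0.366 of the WKY level, in the authors' deposited tables. Sod2, the mitochondrial superoxide dismutase gene, stood at 0.174 and 0.192 in the authors' deposited tables. Cdkn1b, Gabarapl1, Map1lc3b, Cat, Txnip, Bcl6, Ccng2 and Igfbp1 were not listed. These targets have other regulators as well, so their direction does not measure FOXO activity.

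**Figure D2:**
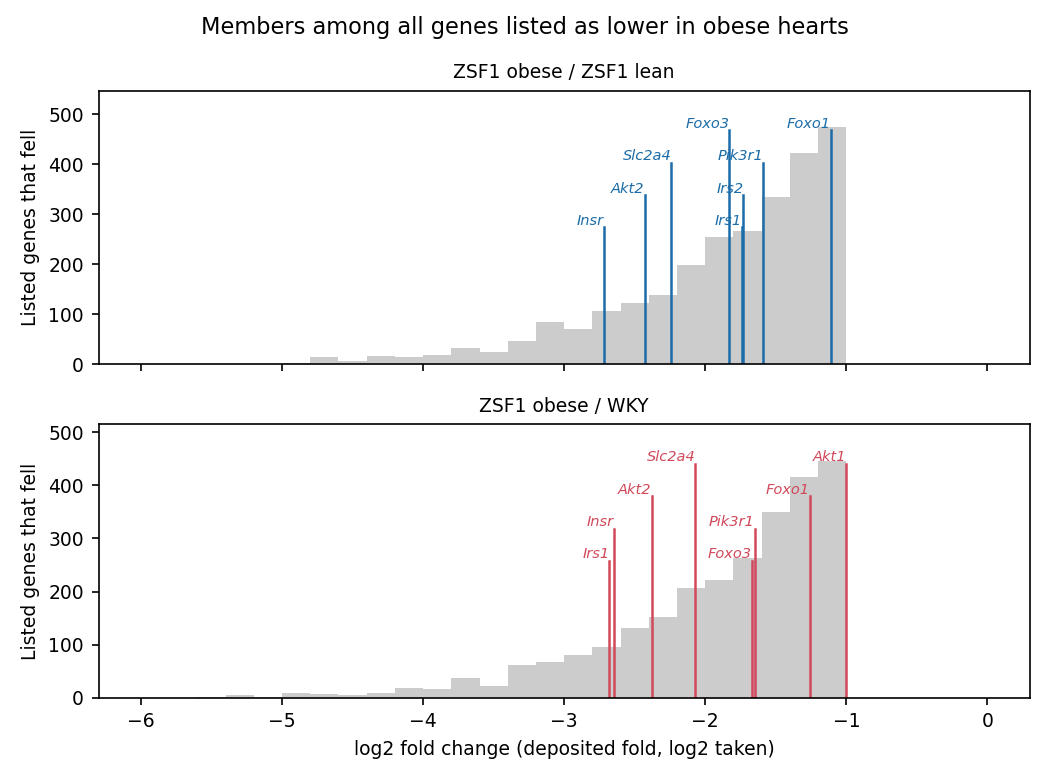
Histogram of the log2 fold change of every gene listed as lower in obese hearts (grey, bins of 0.2), against lean hearts above and WKY hearts below, with a vertical line for each of the 8 listed insulin signalling genes in that comparison. Insr, Irs1, Akt2 and Slc2a4 lie left of the median fall (-1.67 against lean and -1.68 against WKY) in both panels. Of the falls against lean, 14%, 46.1%, 20.5% and 25.3% were larger than theirs. Irs2 and Foxo3 lie left of the median against lean alone, and Foxo1 and Akt1 lie near the edge at -1.

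At the end of the chain, Slc2a4 (ENSRNOG00000017226) stood at 0.212 of the lean level (DESeq2 adjusted p = 5.26e-32) and at 0.238 of the WKY level (DESeq2 adjusted p = 4.82e-26) in the authors' deposited tables, 4.72-fold and 4.2-fold lower. It had the 672nd lowest fold of 2655 falls against lean and the 842nd of 2625 against WKY. Slc2a1, which encodes GLUT1, the transporter of basal uptake, was listed against WKY alone (0.409), and Slc2a12, another insulin-sensitive transporter gene, stood at 0.319 and 0.308 of the lean and WKY levels, in the authors' deposited tables. Tbc1d4, the AKT substrate that holds GLUT4 vesicles back until it is phosphorylated, fell to 0.334 and 0.356, and Rab10, a vesicle GTPase under its control, to 0.497 and 0.379, in the authors' deposited tables. Rab8a, a GTPase of the same class linked to muscle cells, rose with folds of 2.53 and 2.40 in the authors' deposited tables. The fusion machinery was not listed: Vamp2, Stx4, Stxbp3 and Snap23 were in none of the lists, nor were Lnpep and Sort1, which encode proteins of the GLUT4 vesicle. Of 19 genes for GLUT4 traffic and glucose transporters, 4 fell and 1 rose against lean, and 5 fell and 1 rose against WKY. The shares of named protein-coding symbols were 11.8% lower and 13.3% higher against lean, and 11.7% and 13.5% against WKY.

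Transcription factors and coactivators known to act on the GLUT4 gene fell where they were listed, in 4 of 11 cases against lean and 5 of 11 against WKY, beside 11.8% and 11.7% of the named protein-coding symbols. Mef2d stood at 0.264 and 0.213 of the lean and WKY levels, Klf15 at 0.2 and 0.237, and the coactivator gene Ppargc1a at 0.135 and 0.097 in the authors' deposited tables. Mef2a was listed against WKY alone (0.438) in the authors' deposited table, and Mef2c, Hdac4, Hdac5 and Thra were not listed. Nfic, for which a repressive role at the GLUT4 promoter has been described, also fell (0.31 and 0.281) in the authors' deposited tables. Klf15 and Ppargc1a are in the list of FOXO targets too. By distance in log2 fold over the 2 obese comparisons, the genes most like Slc2a4 included Arntl (0.218 and 0.235) and Suox (0.207 and 0.243) in the authors' deposited tables, which says only that their folds are close.

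Of 13 genes in the glycogen and growth branches below AKT, 9 fell and 0 rose in each comparison, beside the same 11.8% and 11.7% listed as lower. Genes that restrain these branches (Gsk3a, Gsk3b and Tsc1) are among the falls, so the count gives no direction for the branches themselves. Gys1, the muscle glycogen synthase gene, stood at 0.183 and 0.162 of the lean and WKY levels, and Ppp1r3a and Ppp1r3c, which target a phosphatase to glycogen, at 0.151 and 0.2 of the lean level in the authors' deposited tables. The kinase genes that switch glycogen synthase off fell less, Gsk3a to 0.48 and 0.486 and Gsk3b to 0.454 and 0.342, in the authors' deposited tables. Hk2, the hexokinase that traps glucose in muscle, stood at 0.287 and 0.247, and Pfkfb2, the cardiac enzyme that speeds glycolysis when AKT phosphorylates it, at 0.325 and 0.237 in the authors' deposited tables. Tsc1, a brake on mTOR, stood at 0.235 and 0.24 in the authors' deposited tables.

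Genes that restrain insulin signalling moved in both directions. Of 15, 4 rose and 4 fell against lean, and 5 rose and 3 fell against WKY. For named protein-coding symbols the shares were 13.3% higher and 11.8% lower against lean, and 13.5% and 11.7% against WKY. Grb10, which binds and inhibits the receptor, rose with folds of 2.81 and 2.24, while its relative Grb14 stood at 0.351 and 0.415 in the authors' deposited tables. Enpp1, a membrane enzyme that inhibits the receptor, rose with folds of 2.99 and 2.64, and Socs1, which marks adaptors for degradation, with folds of 2.66 and 4.29 in the authors' deposited tables. The lipid phosphatase genes split: Inpp5d, chiefly of blood cells, rose with folds of 2.99 and 3.10, while Inppl1 fell to 0.207 and 0.212 and Inpp4b to 0.102 and 0.099 in the authors' deposited tables. Ptpn1, which dephosphorylates the receptor, was listed against lean alone (0.467) in the authors' deposited table.

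**Figure D3:**
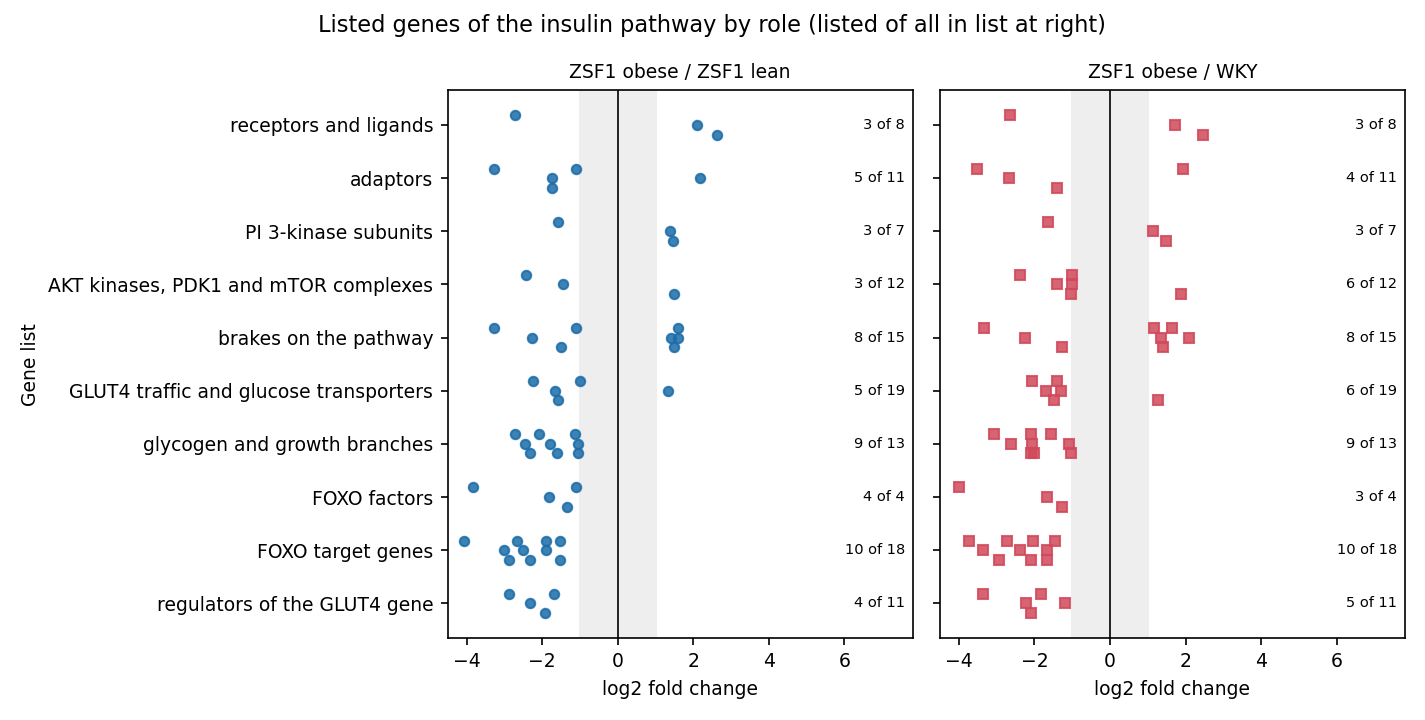
Each point is a listed gene of the insulin pathway, placed by role (rows) and by log2 fold change, for obese against lean (left) and obese against WKY (right); the grey band holds changes too small to be listed, and the text at the right of a row gives the listed genes of all genes in it. The rows for glycogen and growth, FOXO factors, FOXO targets and regulators of the GLUT4 gene hold points to the left of 0 alone. All other rows hold points on both sides. In the row for receptors and ligands, the receptor gene Insr lies on the left and the ligand genes Igf1 and Igf2 on the right.

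In all, the pathway lists hold 116 different genes, of which 41 fell and 11 rose against lean, and 43 fell and 12 rose against WKY. Without the 10 members, 33 of 106 fell and 11 rose against lean, and 35 fell and 12 rose against WKY. The median fold of the listed pathway genes was 0.322 and 0.319. For comparison, 11.8% of the named protein-coding symbols were listed as lower and 13.3% as higher in obese than in lean, and 11.7% as lower and 13.5% as higher in obese than in WKY. The pathway lists were drawn up with earlier results of these data known and hold genes picked for their part in heart muscle, so these counts are a description.

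Markers of cell types moved with the same groups. Of 12 cardiomyocyte markers 6 fell and 0 rose in each comparison, among them Myh6 (0.187 and 0.195), Actc1 (0.247 and 0.213) and Tnnc1 (0.301 and 0.287) in the authors' deposited tables, while Tnnt2, Tnni3, Myl2, Ttn, Pln and Myh7 were not listed. The folds of these 6, the markers that passed the list threshold, ran from 0.187 to 0.369 against lean and from 0.195 to 0.371 against WKY. Against lean, Irs1, Irs2, Pik3r1, Foxo3 and Slc2a4 lay within that range, Insr (0.152) and, by little, Akt2 (0.186) below it, and Foxo1 (0.463) above it. Against WKY, Pik3r1, Foxo3 and Slc2a4 lay within it, Irs1 (0.156), Insr (0.159) and, by little, Akt2 (0.192) below it, and Foxo1 (0.418) and Akt1 (0.5) above it. Of 10 markers each, 9 endothelial and 9 macrophage markers rose against lean, 9 and 10 rose against WKY, and 0 fell. Fibroblast markers rose in 5 of 10 cases against lean and 8 of 10 against WKY, with 0 falls, and smooth muscle markers rose in 4 of 6 and fell in 1 of 6 in each comparison. Over all named protein-coding symbols, 13.3% were listed as higher and 11.8% as lower against lean, and 13.5% and 11.7% against WKY. Fat cells also use GLUT4: of 8 adipocyte markers, Fabp4, Lipe and Pparg rose in both comparisons, and the defining genes Adipoq, Plin1 and Lep were not listed. RNA classes that bear on library quality moved too. Against lean, all 12 listed mRNAs of the mitochondrial genome and 21 of 23 listed small nucleolar RNAs were higher. Against WKY, all 11 and 25 of 26 were higher. Among all listed genes, 3045 of 5700 rose against lean and 3084 of 5709 against WKY. The part of cell makeup and RNA quality in the lower insulin signalling genes was not tested.

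**Figure D4:**
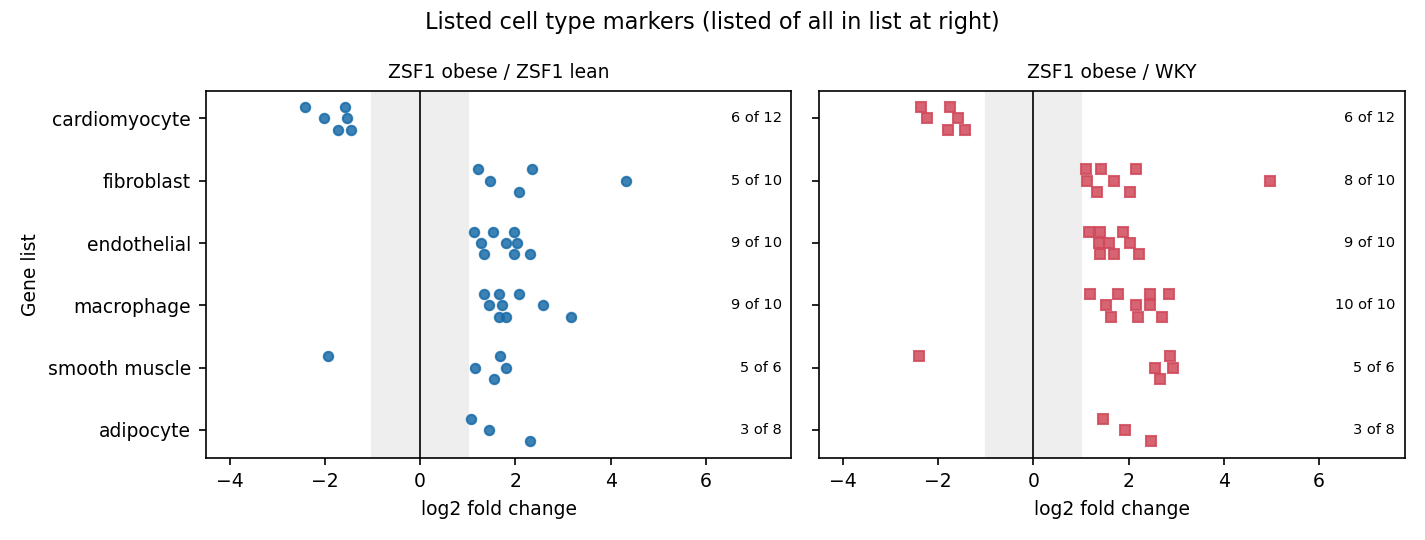
Listed markers of 6 cell types (rows) by log2 fold change, for obese against lean (left) and obese against WKY (right), drawn as in the plot of pathway roles. Cardiomyocyte markers lie to the left of 0, and markers of fibroblasts, endothelium, macrophages and adipocytes lie to the right, while smooth muscle markers include 1 gene, Myocd, on the left.

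Between ZSF1 lean and WKY hearts, which differ in strain and blood pressure, none of the 10 genes was listed, nor was any of the 116 pathway genes. That list is short: 233 genes, of which 36.1% fell, and 0.973% of the named protein-coding symbols were listed there (0.319% as lower and 0.653% as higher). A ratio of lean to WKY can also be had for the 7 genes listed in both obese comparisons, by dividing the fold against WKY by the fold against lean. It was 1.05 for Insr, 0.961 for Pik3r1, 1.03 for Akt2, 0.903 for Foxo1, 1.12 for Foxo3 and 1.12 for Slc2a4, and these 6 ratios lie inside the central range of the 4847 genes listed in both tables, 0.633 to 1.68 (the 5th to 95th percentile). Irs1 gave 0.522, and 2.25% of those genes had a ratio as low or lower. The 5th to 95th percentile range holds most of those genes by definition, and all of them passed the fold threshold in both obese comparisons. A place inside the range is therefore a description and not a test of equal levels. The ratio has no error of its own, and it differs from the deposited values. For the 79 genes in all 3 lists, it had the same sign as the authors' deposited fold of lean against WKY in 79 cases. Those genes were listed for a change between lean and WKY in the same rats, so a shared sign was likely from the start. The deposited log2 fold was nearer to 0 in 79 of 79, at a median of 79.4% of the derived one. The cause of that gap was not tested. Whether a fold threshold of 2 means the same in the lean list as in the obese lists is not known from these values, and 0 listed genes there does not show that lean and WKY hearts had equal levels.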

How the data were processed

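Left ventricles of 6 rats in each of 3 groups were profiled by RNA sequencing with a stranded TruSeq mRNA kit, per the labels' protocols. The submitters' processing notes name HISAT2 2.1.0, HTSeq 0.11.2, DESeq2 1.22.2 and build Rnor_6.0; their settings are not stated there. The authors deposited 1 list of changed genes for each of 3 comparisons. Per the file headers, each gene has a fold change (a linear ratio, with the first-named group on top) and an FDR (an adjusted p-value). Both are the authors' deposited values and were used unchanged. The lists hold no counts, so depth is unknown and no test could be refitted, nor any rat left out.

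Members were matched by exact symbol, all 10 of which are in the RefSeq table. Ranks, counts, medians and the log2 of the deposited fold were computed with Python 3.11.15 and pandas 2.3.3, and counting and motif search were tested on simulated data. Named genes are all 10 members, listed genes of 10 role lists (Klf15 and Ppargc1a are in 2 of them) and the 3 genes nearest to Slc2a4 in log2 fold. Trarg1 and Prkaa2 were added by hand outside these lists. Marker lists cover 6 cell types. A few genes that the lists or the rule cover are counted but not named. Members and lists were chosen with earlier results of these data known. Coordinates on GRCr8 are given for promoter windows alone, since the lists use another build. The labels give no sequencing batch, so a batch cannot be told apart from the groups, and they do not say how the rats' litters relate. Stricter thresholds were tried as alternatives.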

Additional observations from a re-analysis of the deposited data

How the results depend on the processing

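The counts of 8 listed members in each obese comparison did not change with an adjusted p under 0.01 or 0.001, with matching by synonym, or with an adjusted p no higher than the highest in the lean list (0.000347), the last chosen after seeing the data. With a fold of at least 3 in either direction, 7 members were left against lean and 6 against WKY. With a fold of at least 4, 3 members (Insr, Akt2 and Slc2a4) were left against lean and 4 (the same and Irs1) against WKY, and the listed pathway genes dropped from 52 to 20 and from 55 to 24, since a stricter fold leaves fewer genes by construction. The count of 0 for lean against WKY stayed 0 under all settings, which can only remove genes or add synonyms. Of the 16 folds of single members, 13 passed a fold of 3 and 7 a fold of 4. No paired analysis was possible because the groups share no replicate numbers and the lists hold no values per rat. Leaving out each rat was not run for the same reason, and so no search for unusual rats was made. Matching by Ensembl identifier was not run because the RefSeq table gives none for these genes.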

Other observations

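Trarg1, which encodes a protein that steers GLUT4 vesicles and is known from fat and muscle cells, was named after its values were seen. It had a fold of 3.43 in obese against WKY hearts (DESeq2 adjusted p = 1.31e-15) in the authors' deposited table and was not listed in the other comparisons. It moved opposite to Slc2a4, which stood at 0.238 in the same table. Prkaa2, a catalytic subunit gene of AMP-activated protein kinase, which raises glucose uptake without insulin, stood at 0.036 of the lean and 0.029 of the WKY level in the authors' deposited tables. Like Trarg1, Prkaa2 is in none of the planned lists and was picked out by hand.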
